A study of Mus musculus with 23 samples.

Results

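Aldo-keto reductases and aldehyde dehydrogenases are the enzyme families that dispose of reactive aldehydes and ketones in the liver, and 10 of their genes are described here: *Akr1b7*, *Akr1b8*, *Akr1c6*, *Akr1d1*, *Akr7a5*, *Aldh1a1*, *Aldh1a7*, *Aldh1b1*, *Aldh2* and *Aldh3a2*. They were taken by name, as every non-control probe whose gene name on the array equals one of these symbols, and they are 10 of 38 Akr and Aldh genes on the array and 10 of the 21056 genes tested. Liver RNA of 23 male mice on the C57Bl6/J background was measured on Agilent one-colour arrays, 1 array per mouse. Mice received pregnenolone 16α-carbonitrile (PCN), a ligand of the rodent pregnane X receptor (PXR), or its corn oil vehicle alone, to ask what PCN does in the liver with and without this receptor. The groups were WT CONT (wild type, oil, n = 6), WT PCN (wild type, PCN, n = 5), *Pxr*-/- CONT (PXR deleted, oil, n = 6) and *Pxr*-/- PCN (PXR deleted, PCN, n = 6). PCN was given intraperitoneally at 100 mg/kg each day over 4 days, and all mice were killed 6 h after the last injection at zeitgeber time 6. The wild-type mice were bought at 6 weeks of age and the *Pxr*-/- mice came from a colony kept in the animal facility over 10 years, with 2 weeks of acclimatization for both, so that genotype and colony cannot be told apart. The deletion is not limited to the liver.

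Aldo-keto reductases turn aldehydes and ketones into alcohols with NADPH, and the family includes enzymes of lipid aldehydes, steroid hormones and bile acid precursors. Aldehyde dehydrogenases take aldehydes the other way and oxidize them to carboxylic acids with NAD+ or NADP+, which covers acetaldehyde from ethanol, retinal on its way to retinoic acid and long-chain fatty aldehydes. PXR is a nuclear receptor of hepatocytes and enterocytes that pairs with the retinoid X receptor on repeats of a short hexamer and is known above all for the induction of *Cyp3a* and *Cyp2c* enzymes.

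Sequences upstream of the genes are shown for the pair with the largest rises and for a pair of paralogs, to set the measured genes beside their promoters. The windows are those of RefSeq, build GRCm38.p6, 250 bases before to 50 bases after a gene start, and 9 of the 10 genes had at least 1 (10 windows in all, 2 of them for *Aldh1a1*). The hexamer AGGTCA, in capitals on whichever strand it lies, stood at 1 place upstream of *Akr1b7* (chr6:34412112-34412361, plus strand), starting 248 bases before the gene start, and at 2 places upstream of *Akr1d1* (chr6:37529923-37530172, plus strand), starting 232 and 210 bases before it:
*Akr1b7*: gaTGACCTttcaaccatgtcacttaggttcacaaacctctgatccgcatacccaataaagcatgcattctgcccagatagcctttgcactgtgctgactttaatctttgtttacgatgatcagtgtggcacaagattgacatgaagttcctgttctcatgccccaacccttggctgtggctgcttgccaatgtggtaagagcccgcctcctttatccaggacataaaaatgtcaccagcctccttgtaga
*Akr1d1*: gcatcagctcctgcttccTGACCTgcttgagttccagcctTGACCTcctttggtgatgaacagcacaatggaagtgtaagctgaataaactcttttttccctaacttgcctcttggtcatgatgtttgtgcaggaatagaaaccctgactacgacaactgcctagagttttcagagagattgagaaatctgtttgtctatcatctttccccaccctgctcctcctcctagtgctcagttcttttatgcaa
In the searched windows AGGTCA also occurred for *Akr7a5*, and AGTTCA for *Akr7a5* and *Akr1b8*. Both strands were searched, and of 32851 promoter windows of this length 16.3% held AGGTCA and 14.0% held AGTTCA. A direct repeat of these hexamers spaced by 3 or 4 bases, an everted repeat spaced by 6 and TGACNNNGC were in no window of the 10 genes, against 0.0122%, 0.0274%, 0.00913% and 12.4% of all windows. A match is a description of the letters in this window alone.

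*Aldh1a1* and *Aldh1a7* lie on the same chromosome and are close relatives. Their promoter stretches over the last 110 bases before the start were identical at 104 positions (94.5%), against 17.9% of the 140 bases farther upstream. This boundary was chosen after the windows had been compared. Bases were compared at equal distance from the start and without gaps. The 17.9% therefore does not show that the likeness ends there, since related stretches at unequal distances are missed. *Aldh1a1* has another window in the table, from another start, and it was identical to *Aldh1a7* at 29.1% of the same 110 bases (34.5% at the best shift). The stretches of the first pair are given 5′ to 3′ along each gene, with the 6 differing bases in capitals, for *Aldh1a1* (chr19:20601858-20601967, plus strand) and *Aldh1a7* (chr19:20727557-20727666, minus strand):
*Aldh1a1*: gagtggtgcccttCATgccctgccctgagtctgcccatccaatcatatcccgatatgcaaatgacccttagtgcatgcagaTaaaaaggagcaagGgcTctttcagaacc
*Aldh1a7*: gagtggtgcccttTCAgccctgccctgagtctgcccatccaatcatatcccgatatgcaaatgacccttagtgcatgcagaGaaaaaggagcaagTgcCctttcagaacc
The array read the paralogs with 60-base probes, and the first 30 bases of these probes are shown too. The probes share little sequence with each other. No probe was compared with the transcript of the other gene, so whether a probe also reads the paralog was not tested. The longest run of bases shared by the *Aldh1a1* and *Aldh1a7* probes was 8:
*Aldh1a1* probe: gactagttgtgacttaagctctgtccctca
*Aldh1a7* probe: ttccttgaactatgtaccatgcatgataac
*Akr1b7* probe: gagatccgtgcatgatagattccttcgtct
*Akr1b8* probe: aacggacatctccttcactaatttgacctg
On the array's build, mm9, these probes lie at chr19:20717764-20717823, chr19:20767553-20767612, chr6:34372905-34372964 and chr6:34318338-34318397, in the order shown. Exons and UTRs were not assigned, since no mm9 annotation was used here.

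Levels are quantile normalized log2 signals of the scanner's median intensity, and changes are differences on that log2 scale from a limma fit over all 23 arrays. A gene was called at a Benjamini-Hochberg adjusted p of at most 0.05 over all probes tested and a fold change above 1.5, read from its brightest kept probe. All 10 genes passed the filter on dim probes, and *Akr1b7* was the only one of them not well above background on every array, being so on 5 of the 6 WT CONT arrays and on all others. Between 29510 and 33321 of 56605 probes per array were well above background. The probe of *Nr1i2*, which encodes PXR, did not separate the genotypes (log2 difference −0.03 in control mice, adjusted p = 0.977). The exons removed in the knockout are not given in the sources used here, so this probe does not check the labels. *Cyp3a11* and *Cyp2c55*, known PXR targets, rose with PCN by 3.55 and 6.26 (log2) in WT mice, and their changes in *Pxr*-/- mice were 0.31 and 0.54 (adjusted p = 0.431 and 0.14). In control mice *Cyp2c55* was higher in *Pxr*-/- than in WT mice by 2.80 (adjusted p = 1.53e-07). *Cyp3a11* was higher there by 0.69 (adjusted p = 0.199).

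PCN raised 5 of the 10 genes in WT mice and lowered none of them. The 5 were *Akr1b7*, *Akr1d1*, *Aldh1b1*, *Aldh1a7* and *Aldh1a1*, an aldose reductase-like enzyme, a steroid reductase and 3 members of the *Aldh1* subfamily. Over all genes tested, 3.79% were called higher and 2.39% lower in this comparison. The median change of the 10 genes was 0.44 (log2) and that of all genes tested was −0.02. The 10 genes were chosen with earlier results of these data known, so these comparisons are no test of the set. As the RNA is from whole liver, fewer cells of a type and less RNA per cell cannot be told apart.

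**Figure D1:**
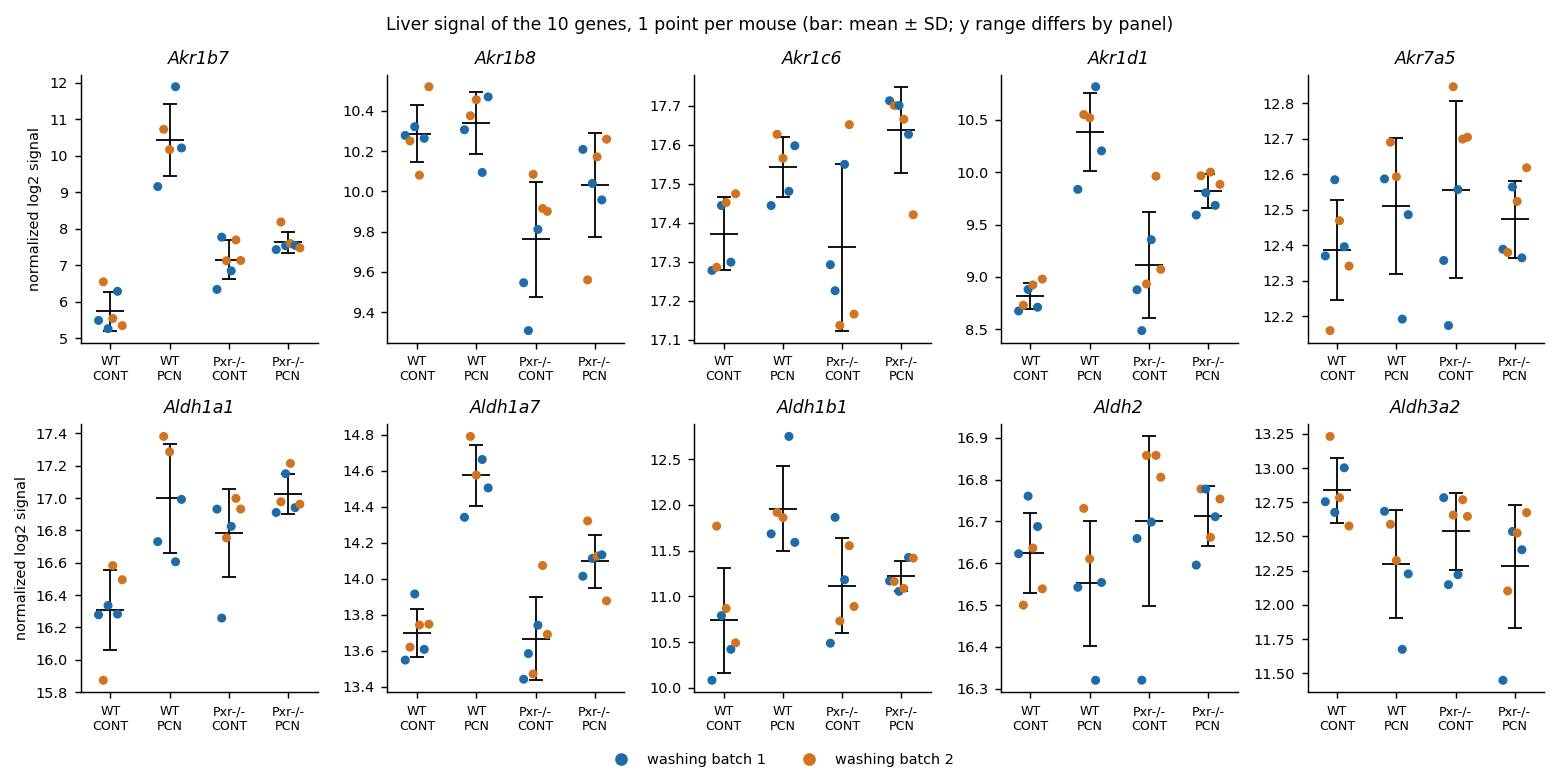
Normalized log2 signal of each gene in every mouse (points, coloured by array washing batch), with the group mean and SD as bars, in the 4 groups; the y range differs between panels. The 5 WT PCN mice lie above all 6 WT CONT mice for *Akr1b7*, *Akr1d1*, *Aldh1a7* and *Aldh1a1*, while *Aldh2* and *Akr7a5* show overlapping groups. The share of all genes tested whose groups part in this way is not given here.

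*Akr1b7* encodes an aldose reductase-like enzyme that reduces aldehydes such as those from lipid peroxidation. Its log2 signal in WT CONT mice had a lowest value of 5.26, a median of 5.51 and a highest value of 6.54. The 5 WT PCN mice measured 9.15, 10.72, 10.17, 11.89 and 10.21. The lowest WT PCN mouse lay 2.61 above the highest WT CONT mouse, and WT PCN was also the group with the widest spread (SD 1.00). The fitted change was 4.71 ± 0.35 (SE), a 26.2-fold rise (adjusted p = 4.96e-09). Among WT CONT arrays, 5 of 6 read this probe well above background, and the change ran from 4.06 to 5.87 over the other settings, so its exact size depends on the processing.

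Without PXR the same probe ranged from 6.33 to 7.77 with a median of 7.12 in CONT, and from 7.43 to 8.18 with a median of 7.54 in PCN. These groups overlapped, with 1 PCN mouse above the highest CONT mouse. The change was 0.48 ± 0.33 (SE, adjusted p = 0.432). The PCN effect differed between the genotypes by 4.23 (95% confidence interval 3.24 to 5.22, adjusted p = 1.2e-05), and all 6 *Pxr*-/- PCN mice lay below all 5 WT PCN mice. The difference was 4.23 (adjusted p = 0.054) within the first washing batch alone and 4.20 (adjusted p = 0.00281) within the second.

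*Akr1d1* encodes the steroid reductase that reduces the ring double bond of bile acid precursors and of steroid hormones. WT CONT mice had a lowest log2 signal of 8.67, a median of 8.81 and a highest of 8.98. WT PCN mice measured 9.84, 10.55, 10.52, 10.82 and 10.20, all above the WT CONT mice, with a gap of 0.86. The rise was 1.59 ± 0.17 (SE), or 3.02-fold (adjusted p = 1.6e-06). Its other probe rose by 1.05 (adjusted p = 2.82e-05).

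*Akr1d1* was also the one gene of the 10 that was called in *Pxr*-/- mice, where 1.42% of all genes tested were called higher and 0.86% lower. *Pxr*-/- CONT mice ranged from 8.49 to 9.96 with a median of 9.003, and *Pxr*-/- PCN mice from 9.59 to 10.00 with a median of 9.84. The groups overlapped because 1 CONT mouse reached the PCN level. The rise was 0.71 ± 0.16 (SE), or 1.63-fold (adjusted p = 0.0126). It was not called by the other probe (0.40, adjusted p = 0.0768), nor within the first washing batch (0.79, adjusted p = 0.197) or the second (0.63, adjusted p = 0.196). The effect in WT mice exceeded that in *Pxr*-/- mice by 0.89 (95% confidence interval 0.40 to 1.38), which did not pass the threshold (adjusted p = 0.0661). Without WT PCN replicate 1 or without *Pxr*-/- CONT replicate 2 it did, at 1.00 (adjusted p = 0.0292) and 0.99 (adjusted p = 0.0258).

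*Aldh1b1* encodes a mitochondrial aldehyde dehydrogenase related to *Aldh2*. WT CONT mice ranged widely, from 10.08 to 11.77 with a median of 10.64. WT PCN mice measured 11.68, 11.92, 11.86, 12.75 and 11.59. The groups overlapped through 1 high WT CONT mouse, and 3 of 5 WT PCN mice lay above it. The rise was 1.24 ± 0.26 (SE), or 2.35-fold (adjusted p = 0.00171), and it was called within the first washing batch (1.58, adjusted p = 0.0154) but not the second (0.85, adjusted p = 0.153). *Pxr*-/- mice had medians of 11.04 in CONT and 11.17 in PCN, a fitted change of 0.10 (adjusted p = 0.864), and no *Pxr*-/- PCN mouse reached the lowest WT PCN mouse. The genotypes differed in the effect by 1.13 (95% confidence interval 0.39 to 1.88, adjusted p = 0.127). This became 1.33 (adjusted p = 0.0335) without WT CONT replicate 2, the high mouse, the 1 of 23 such fits in which it was called. The difference ran from 0.93 to 1.33 with single arrays left out and from 0.68 to 1.54 over the other settings.

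*Aldh1a7* is the rodent paralog of *Aldh1a1* with the near-identical promoter stretch shown above. WT CONT mice ranged from 13.55 to 13.92 with a median of 13.68. WT PCN mice measured 14.34, 14.79, 14.57, 14.66 and 14.50, and a gap of 0.43 parted them from the WT CONT mice. The rise was 0.89 ± 0.10 (SE), or 1.85-fold (adjusted p = 4.25e-06), the smallest standard error among the 5 called genes. Among *Pxr*-/- mice the median went from 13.64 in CONT to 14.12 in PCN. That change, 0.43 (adjusted p = 0.0118), was below the fold limit. The difference between the effects was 0.46 (95% confidence interval 0.16 to 0.75, adjusted p = 0.119).

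*Aldh1a1* encodes the cytosolic retinal dehydrogenase of liver. WT CONT mice ranged from 15.87 to 16.58 with a median of 16.31. WT PCN mice measured 16.73, 17.38, 17.29, 16.61 and 16.99, so the groups were parted by only 0.024. The rise was 0.71 ± 0.14 (SE), or 1.64-fold (adjusted p = 7.26e-04), and within washing batches it was 0.48 (adjusted p = 0.0791) and 1.02 (adjusted p = 0.0192). The medians in *Pxr*-/- mice were 16.88 in CONT and 16.97 in PCN, a change of 0.24 (adjusted p = 0.284). The effects of the genotypes differed by 0.47 (95% confidence interval 0.08 to 0.86, adjusted p = 0.241).

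**Figure D2:**
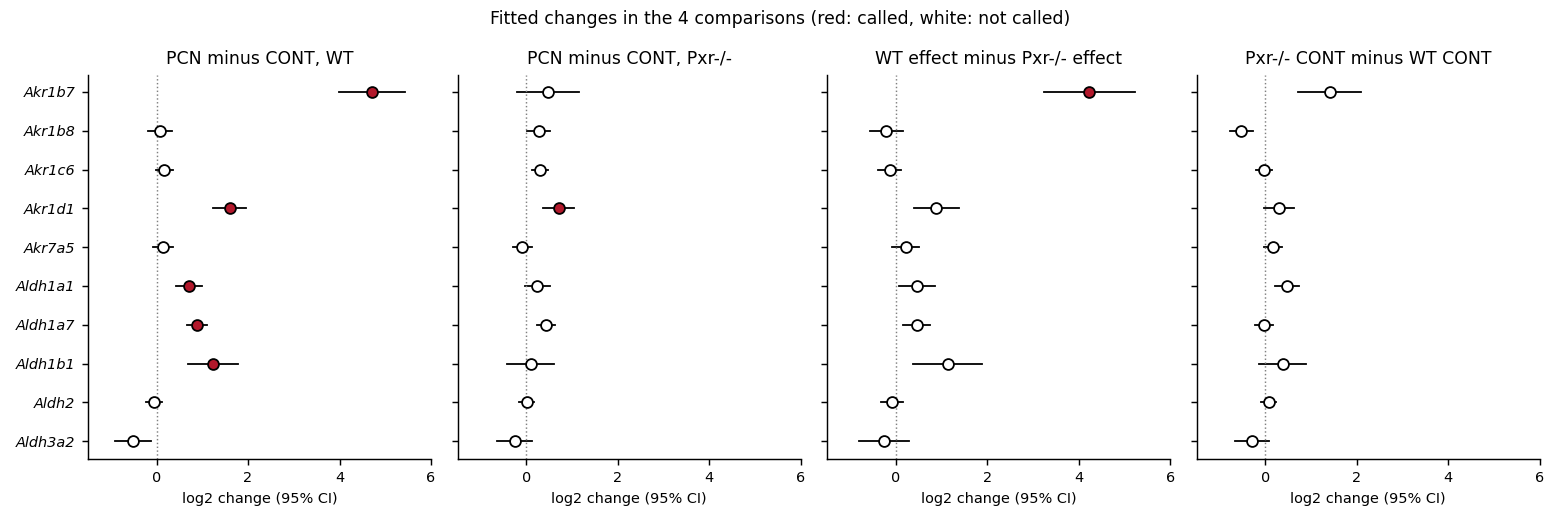
Fitted log2 changes (points) with 95% confidence intervals (lines) of the 10 genes in the 4 comparisons, on 1 common axis, with called genes in red. Red points number 5 for PCN in WT mice, 1 for PCN in *Pxr*-/- mice (*Akr1d1*), 1 for the difference between the genotypes in the PCN effect (*Akr1b7*) and 0 for genotype in control mice.

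The other 5 genes were not called in WT mice. *Akr1b8*, the close relative of *Akr1b7* on the same chromosome, had medians of 10.27 in WT CONT and 10.38 in WT PCN and a change of 0.07 (95% confidence interval −0.20 to 0.33). Its groups overlapped fully, and in *Pxr*-/- mice its change was 0.27 (adjusted p = 0.187). *Akr1c6*, a hydroxysteroid dehydrogenase of liver, changed by 0.17 (adjusted p = 0.172) in WT mice. It changed by 0.30 (adjusted p = 0.0335) in *Pxr*-/- mice, below the fold limit. *Akr7a5*, a reductase of dialdehydes such as those formed from aflatoxin, changed by 0.14 (adjusted p = 0.367) in WT mice and by −0.08 (adjusted p = 0.68) in *Pxr*-/- mice.

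*Aldh2* encodes the mitochondrial enzyme that clears most acetaldehyde from ethanol. It was read by 4 probes, whose changes with PCN lay between −0.15 and 0.09 in WT mice, and the 95% confidence interval of the brightest was −0.24 to 0.11. None of the 4 probes was called in any comparison. *Aldh3a2* encodes the fatty aldehyde dehydrogenase of the endoplasmic reticulum. Its WT CONT mice ranged from 12.58 to 13.23 with a median of 12.77, and the WT PCN mice had a median of 12.32, with 3 of 5 below the lowest WT CONT mouse. The change was −0.51 ± 0.19 (SE, adjusted p = 0.0532), and its 2 other kept probes gave −0.35 (adjusted p = 0.167) and −0.56 (adjusted p = 0.0384, below the fold limit). Without WT PCN replicate 1 it was called at −0.63 (adjusted p = 0.0223), and without WT CONT replicate 6 at −0.59 (adjusted p = 0.0326). It was smallest at −0.38 without WT PCN replicate 4, where it was not called, and was −0.34 (adjusted p = 0.225) with the deposited values.

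**Figure D3:**
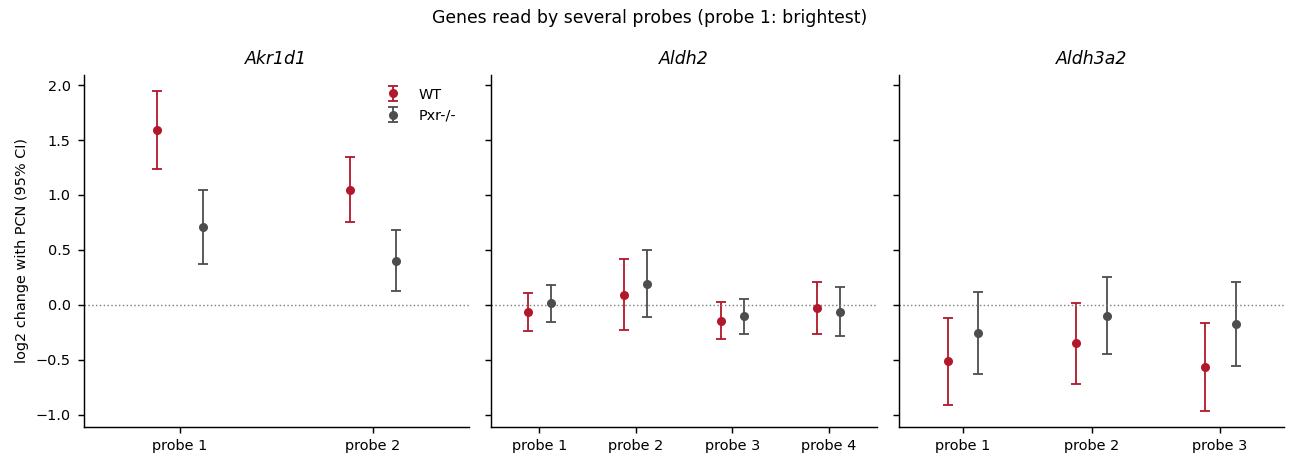
Log2 change with PCN and its 95% confidence interval for each kept probe of the 3 genes read by several probes, in WT mice (red) and *Pxr*-/- mice (grey), with probe 1 the brightest. Both *Akr1d1* probes lie above 0 in each genotype, the 4 *Aldh2* probes straddle 0, and the 3 *Aldh3a2* probes lie below 0.

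Only *Akr1b7* was called for a difference between the genotypes in the PCN effect, 1 of 10 genes against 0.807% of all genes tested called with a larger effect in WT mice and 0.242% with a smaller one. The 4 other genes raised in WT mice had larger fitted changes in WT than in *Pxr*-/- mice, by between 0.46 and 1.13, and these differences did not pass the threshold. Their unadjusted p lay between 0.00111 and 0.0203, and missing the threshold does not show that the effects are alike.

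In control mice no gene of the 10 was called for genotype in the limma fit, against 0.228% of all genes tested called higher and 0.0807% lower in *Pxr*-/- mice, and 3 had an unadjusted p under 0.05. *Akr1b7* was 1.41 ± 0.33 (SE) higher in *Pxr*-/- CONT than in WT CONT mice (adjusted p = 0.0605), and 5 of the 6 *Pxr*-/- CONT mice lay above the highest WT CONT mouse. It passed the threshold in 7 of 36 other fits, among them the scanner's processed signal (2.22, adjusted p = 0.0201) and those without WT PCN replicate 4 (adjusted p = 0.0103), WT PCN replicate 1 (0.028), WT CONT replicate 2 (0.0417) or *Pxr*-/- CONT replicate 1 (0.0421). *Akr1b8* differed by −0.52 ± 0.12 (SE, adjusted p = 0.0549), with 5 of 6 *Pxr*-/- CONT mice below all WT CONT mice, and the authors' deposited values gave −0.66 (adjusted p = 0.0325). *Aldh1a1* differed by 0.48 ± 0.13 (SE, adjusted p = 0.126), and its processed signal gave 0.63 (adjusted p = 0.037). For *Aldh1a1* too, 5 of the 6 *Pxr*-/- CONT mice lay above the highest WT CONT mouse.

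Of the 28 other Akr and Aldh genes on the array, 25 were tested, and *Akr1c21*, *Aldh1l2* and *Aldh3b2* were too dim. PCN raised 1 of the 25 (4%) in WT mice, near the 3.79% of all genes tested that were called higher. None was lowered, against 2.39% of all genes tested, and the 1 raised was *Aldh1a3*, another retinal dehydrogenase. Its log2 signal ranged from 5.72 to 6.26 with a median of 6.01 in WT CONT, and from 6.60 to 8.23 with a median of 7.54 in WT PCN, without overlap. The rise was 1.47 (adjusted p = 1.16e-05), set against 0.53 (adjusted p = 0.0731) in *Pxr*-/- mice, and these effects differed by 0.94 (adjusted p = 0.0713). Within the second washing batch alone the rise in WT mice was not called, and with the processed signal a rise of 0.81 was called without the receptor (adjusted p = 0.0464). The median change of the 25 genes in WT mice was 0.05, and 7 had an unadjusted p under 0.05. In the limma fit none of the 25 was called for PCN in *Pxr*-/- mice, for the difference between the effects or for genotype, where 7, 5 and 1 had an unadjusted p under 0.05.

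**Figure D4:**
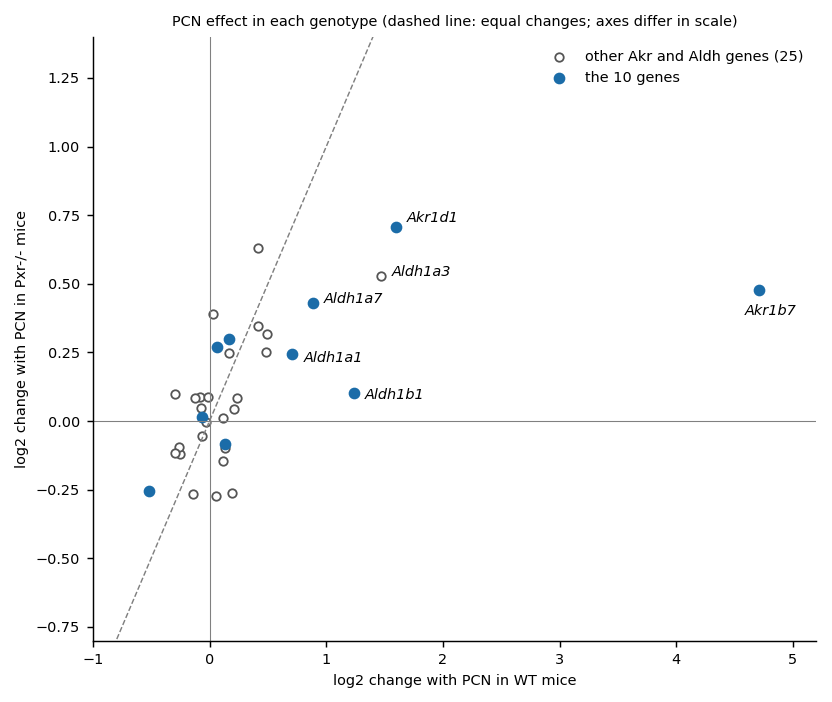
Log2 change with PCN in WT mice (x axis) against that in *Pxr*-/- mice (y axis, on a wider scale) for the 10 genes (filled) and the 25 other tested Akr and Aldh genes (open), with a dashed line where both changes are equal. *Akr1b7* lies far to the right at 4.71 and 0.48, and *Akr1d1*, *Aldh1a3*, *Aldh1b1*, *Aldh1a7* and *Aldh1a1* also lie to the right of the dashed line.

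Enzymes that make or use the same substrates were counted from 3 lists. Of all genes tested, 3.79% were called higher and 2.39% lower with PCN in WT mice. In *Pxr*-/- mice these shares were 1.42% and 0.86%. They are the shares to set beside the counts of these lists and of the cell markers below. Of 21 genes of retinol and retinal handling, 2 rose and 2 fell with PCN in WT mice. *Rdh11*, a retinal reductase, rose by 0.68 (adjusted p = 0.00247). *Adh4* and *Rdh9*, which oxidize retinol and other alcohols, fell by 0.75 (adjusted p = 6.9e-04) and 0.69 (adjusted p = 0.0107). This count of 4 became 2 without WT PCN replicate 4 and 0 within the second washing batch. The list's median change was −0.05.

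Of 14 genes of bile acid synthesis, the pathway of *Akr1d1*, 1 rose in WT mice. It was *Ch25h*, a cholesterol hydroxylase, at 1.62 (adjusted p = 2.16e-05), with signal well above background in 4 of 6 WT CONT and all 5 WT PCN mice. In *Pxr*-/- mice its fitted change was 0.50 (adjusted p = 0.149), but only 2 of the 6 CONT mice gave a signal well above background, so the size of this change is uncertain. The list's median change in WT mice was −0.18. The count was 4 without WT PCN replicate 4, 3 within the second washing batch and 2 without WT CONT replicate 4 or with slides as blocks. In *Pxr*-/- mice 1 of the 14 rose, *Cyp27a1* (named after its value was seen), a sterol hydroxylase of mitochondria, at 0.67 (adjusted p = 0.0302), and this call was lost in 5 of the 23 fits that left out 1 array. Of 12 tested genes that supply or use acetaldehyde, acetate and fatty aldehydes, 1 rose in WT mice, the acetyl-CoA synthetase gene *Acss2*, at 0.96 (adjusted p = 0.00921), and the list's median was 0.04. None of the 12 was called in the other comparisons.

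Markers of other cells were read beside these changes. The summed level of a list is the log2 of its tested markers' signals added together, so the brightest markers weigh most. Of 8 hepatocyte markers 0 were called in the limma fit with PCN in WT mice (1 had an unadjusted p under 0.05). Their summed level ranged from 19.99 to 20.29 in WT CONT and from 20.01 to 20.13 in WT PCN mice. Of 6 tested cholangiocyte markers 1, *Sox9*, was called higher, and the summed level ranged from 10.70 to 12.28 in WT CONT and from 11.80 to 13.00 in WT PCN. Of 7 stellate cell markers 2, *Col1a1* and *Lum*, were called higher in both genotypes (the markers named here were picked after their values were seen), with summed levels from 14.35 to 15.12 in WT CONT and from 14.61 to 14.9997 in WT PCN. Their part in the changes of the 10 genes was not tested. *Akr1b7* is also known from the adrenal gland and intestine. Of 6 adrenal markers, *Cyp11a1* and *Cyp11b1* were well above background on 0 of 23 arrays, *Mc2r* on 22, and *Star*, *Cyp21a1* and *Cyp17a1* on 23. None of the 4 tested adrenal markers was called in WT mice, and 1, *Cyp21a1*, was called higher with PCN in *Pxr*-/- mice. Only 1 of the 4 had a positive change there, and the median change of the 4 was −0.07. Their summed level ranged from 11.51 to 12.21 in WT CONT, 11.47 to 12.10 in WT PCN, 11.64 to 12.28 in *Pxr*-/- CONT and 12.10 to 12.54 in *Pxr*-/- PCN. Of 8 intestinal markers, *Cdx1*, *Cdx2*, *Muc2* and *Sis* were well above background on 1 array each, *Lct* on 4, *Reg3g* on 10, and *Fabp2* and *Apoa4* on 23. Of the 3 tested, 1, *Fabp2*, was called lower with PCN in both genotypes. Changes of the 3 ran from −1.55 to 0.96 in WT mice, where 1 was positive. In *Pxr*-/- mice they ran from −0.81 to 1.53, with 2 positive and a median of 0.70. Their summed level ranged from 14.48 to 15.37 in WT CONT, 13.59 to 14.51 in WT PCN, 14.23 to 15.30 in *Pxr*-/- CONT and 14.43 to 15.22 in *Pxr*-/- PCN. The part of either list in the *Akr1b7* rise was not tested.

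Genes whose profile was most like that of *Akr1b7* were sought by the root mean square difference of centred log2 signals over all 23 arrays, among 15098 named genes. *Pou5f1* was nearest at 0.476, followed by *Krt31* at 0.521 and *Rnf150* at 0.549, against a root mean square deviation of 1.74 for *Akr1b7* itself. With PCN they changed by 4.70, 5.41 and 5.23 in WT mice and by 0.65, 0.98 and 0.83 in *Pxr*-/- mice. They were picked for likeness over these same arrays, so changes near those of *Akr1b7* follow from the choice. Shared regulation was not tested.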

How the data were processed

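Per the labels, total RNA (150 ng) was labelled with Cy3, and the arrays were washed in 2 batches. Per the file headers, the deposited scanner files hold Agilent Feature Extraction output (version 10.10.1.1 in the submitters' processing notes), which gives each spot's intensity before any normalization between arrays. A table of normalized log2 values for 32574 probes was deposited as well. Its values, the study's methods state, came from filtered median signals that were log2 transformed, adjusted for washing batch and put through CrossNorm, which stacks arrays into long columns, and which arrays were stacked is not given in the sources used here. Since a group-wise normalization can shift a whole group, the deposited values were used as an alternative only.

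From the scanner files, the median signal of 62976 spots per array was read and control spots were left out, so that 59305 spots remained. Spots flagged as outliers, 2225 in total, were dropped. The log2 signals were averaged per probe (56605 probes). Probes well above background on over 50% of the arrays of at least 1 group were kept (32087 probes, 83 missing values) and quantile normalized. Models were fitted with limma 3.58.1 in R 4.3.3 (package data.table, version 1.17.8) on all 23 arrays with terms for group and washing batch, leaving 18 residual degrees of freedom. Both washing batches contained 3 mice per group, but the second only 2 of WT PCN. Fitted changes are adjusted for batch and so need not equal the difference of group means. Promoter windows were searched in Python 3.11.15. The fit was tested on simulated data.

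All 10 genes are named, with other Akr and Aldh genes called in any comparison, up to 4 called genes per substrate list and the 3 genes most like a gene called for the difference between effects. A gene of the substrate lists enters the counts but is not reported here. The genes and lists were chosen with earlier results of these data known. Alternatives were the processed signal scaled to the 75th percentile, normexp background correction (offset 50), the deposited values, median centring, no or a stricter filter, no batch term, slide (8) as fixed or random block, each washing batch alone, a replicate block, only the groups compared, other probes of a gene and leaving out each array. Groups and replicate numbers came from the labels, which name each mouse as its own sample. Arrays give no molecule counts, so their number limits the precision.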

Additional observations from a re-analysis of the deposited data

Results flagged for a closer look

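Single mice stood apart from the rest of their group by a test on the gap to the nearest mouse in 5 of 40 groups of a gene, where chance gives about 1 in 20. For *Akr1b7*, *Pxr*-/- PCN replicate 2 measured 8.18 (log2) with the next mouse at 7.59. For *Akr1c6*, *Pxr*-/- PCN replicate 6 measured 17.42 with the next at 17.63. *Pxr*-/- CONT replicate 2 was low for both *Aldh1a1* (16.26, next 16.75) and *Aldh2* (16.32, next 16.66). For *Aldh1b1*, WT PCN replicate 4 was high at 12.75, with the next mouse at 11.92, and this mouse also had the highest *Akr1b7* and *Akr1d1* signals of its group.

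The PCN effect on *Akr1b7* was larger in WT than in *Pxr*-/- mice by 4.23 (log2), which was tested as the interaction (adjusted p = 1.2e-05).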

How the results depend on the processing

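For PCN in WT mice, *Akr1b7* and *Aldh1a7* kept their calls in all 36 other fits, and *Akr1d1* in all 36 that gave a test. *Aldh1a1* and *Aldh1b1* each lost theirs within 1 washing batch alone. The size of the *Akr1b7* rise ran from 4.06 (normexp) to 5.87 (processed signal). No result that changed sign had been called. The small changes that did were, within the first washing batch alone, *Akr7a5* in WT mice (−0.028), in *Pxr*-/- mice (0.076), for the difference between effects (−0.10) and for genotype (−0.087), *Akr1c6* for genotype (0.016) and *Aldh2* for genotype (−0.13). Within the second they were *Akr1b8* for the difference (0.10), *Aldh1a7* for genotype (0.042), and *Aldh2* in WT mice (0.11), in *Pxr*-/- mice (−0.11) and for the difference (0.22). With median centring they were *Akr1c6* for genotype (0.038) and *Aldh2* in WT mice (0.013), in *Pxr*-/- mice (−0.012) and for the difference (0.025). With the processed signal they were *Akr1c6* (0.098) and *Aldh1a7* (0.031) for genotype and *Aldh2* in WT mice (0.011), in *Pxr*-/- mice (−0.00017) and for the difference (0.011). The deposited values turned *Aldh2* in WT mice (0.16) and for the difference (0.11), and slides as fixed blocks turned it in *Pxr*-/- mice (−0.0034). Leaving out single arrays moved genotype from −0.10 to 0.0075 for *Akr1c6* and from −0.11 to 0.026 for *Aldh1a7*, and PCN in *Pxr*-/- mice from −0.020 to 0.27 for *Aldh1b1* and from −0.058 to 0.037 for *Aldh2*.

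Of the 10 genes, the number called in *Pxr*-/- mice was 0 within either washing batch, where 3 mice a group remain. For the difference between effects it was 0 within the first batch and 1 to 2 with single arrays left out. For genotype it was 2 with the processed signal, 1 with the deposited values, 1 with median centring and 0 to 1 with single arrays left out. Of the other Akr and Aldh genes, PCN in WT mice gave 2 calls with the processed signal, 4 with the deposited values, 2 within the first washing batch, 0 within the second and 2 when any probe counted. In mice without PXR it gave 1 with the processed signal, 1 with slides as fixed blocks and 0 to 1 with single arrays left out. The difference gave 1 with the deposited values (*Aldh1a3*, 1.05), 1 within the first batch and 0 to 1 with single arrays left out, and genotype gave 1 when any probe counted. Calls among the retinol and retinal genes were, in WT mice, 2 with the deposited values, 0 within the second batch and 2 to 4 with single arrays left out. For *Pxr*-/- mice they were 0 and 2 within the batches and 1 to 2 with single arrays left out, and 0 to 1 for the difference and for genotype. Bile acid genes gave, in WT mice, 2 with slides as fixed blocks, 3 within the second batch and 1 to 4 with single arrays left out. PCN in *Pxr*-/- mice gave 2 with the processed signal and 0 with the deposited values, no filter, slides as fixed blocks, either batch alone and some single arrays left out (0 to 1). The difference gave 1 with normexp, with the deposited values and within the first batch, and 0 to 1 with single arrays left out. The aldehyde supply genes gave 2 in WT mice with the deposited values. The cause of these shifts was not tested.

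With the deposited values the median change of all genes was 0.11 for PCN in WT mice and −0.11 for genotype. In the main fit these medians were −0.02 and −0.005. The deposited values turned the split of all genes called higher and lower from 798 and 504 to 1390 and 259 in WT mice. For genotype it went from 48 and 17 to 27 and 33. Same-numbered mice of different groups correlated at −0.17 to 0.61 (median 0.002), and 8 of 23 arrays were closest to their own number. These values do not settle whether replicate numbers pair the mice, and the main fit did not use the numbers. With the replicate block the number of the 10 genes called for genotype was 1 (*Akr1b7*, 1.41, adjusted p = 0.0227), and the other counts of calls among the 10 were 5, 1 and 1, as without it.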

Other observations

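The spread among mice was smaller in *Pxr*-/- PCN than in *Pxr*-/- CONT for 9 of the 10 genes, *Aldh3a2* being the exception. Of all 21056 genes tested, 58.4% had the smaller SD in *Pxr*-/- PCN. In WT mice the order was the other way, with the smaller SD in CONT than in PCN for 8 of the 10 genes (48.6% of all genes). Between the control groups, WT CONT had a smaller SD than *Pxr*-/- CONT for 8 of the 10 (53.7% of all genes). Between the *Pxr*-/- groups the gap was widest for *Aldh1b1*, with an SD of 0.52 in CONT and 0.16 in PCN. *Akr1d1* came next, with 0.50 and 0.16. Between the WT groups the gap was widest for *Akr1b7*, with an SD of 0.54 in CONT and 1.00 in PCN. The genes were read in the same mice and are not independent of each other, and no test was made.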
